A study of Sus scrofa with 16 samples.

Results

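Liver gene expression of 6 pigs fed coconut oil (group C) was compared with that of 5 pigs fed rapeseed oil (group R), 11 of the 16 pigs sequenced in the study. The pigs were taken by their diet labels alone, without use of any measured value, and the pigs fed beef tallow were not analysed here. All pigs were crosses of (Polish Landrace x Polish Large White) sows with (Duroc x Pietrain) boars, penned singly on straw and fattened between body weights of about 60 and 118 kg. Group R held 3 gilts and 2 barrows, and group C held 3 gilts and 3 barrows. The diets were alike in energy and protein and differed in the added fat, and neither group went without added fat, so every value below compares one oil with the other. The pigs' ages are not given in the labels, and the study excluded other pigs for low sequencing quality. Each pig gave 1 library, made from the 3′ ends of mRNA, in which a read count follows the number of transcripts and not their length.

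Coconut oil consists mostly of saturated fatty acids, many of them of medium chain length, such as lauric acid. Rapeseed oil is rich in oleic, linoleic and alpha-linolenic acid. Medium-chain fatty acids reach the liver largely by the portal vein and can enter mitochondria without the carnitine shuttle, whereas long-chain fatty acids need it. The liver burns these fatty acids, turns them into ketone bodies, stores them as triglycerides or sends them out in lipoproteins, and it makes cholesterol, bile acids and most plasma proteins. Cells that must fold much protein, or whose proteins are damaged, raise chaperones by separate programmes in the cytosol, the endoplasmic reticulum and the mitochondria.

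Counted reads on genes ran from 801172 to 1425550 per pig with rapeseed oil (median 1009449) and from 705669 to 1767671 with coconut oil (median 1183817.5). Reads with several alignments, which the counting gave to no gene, made up 21.9% to 32.5% of reads in group R and 15.4% to 38.1% in group C, a difference in means of -3.89 percentage points (two-sided exact permutation test over 462 labellings, p = 0.377, adjusted p = 0.652 over 4 measures). Coconut oil pig 3 had the highest share and the lowest depth of all 11 libraries, and without it the difference was -6.98 (exact permutation p = 0.0397). This pig stayed in the comparison, and the counts over all genes are also given without it. Of the variance of log2 counts, 16.7% fell on the first principal component and 14.4% on the second. Along the second, group R lay between 6.65 and 16.7 and group C between -18.1 and 5.36. Along the first the groups overlapped, group R between -13.1 and 5.60 and group C between -26.3 (pig 3) and 34.0 (pig 1). These 2 coconut oil pigs had the highest and the lowest share of reads with several alignments. No 2 of the 11 libraries were identical.

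The markers of liver were present. Albumin (ALB) alone took 92126 ± 18049 normalised counts (CPM, scaled to a library of 1e6 reads) with rapeseed oil (SD, n = 5, as for all ± values of group R below) and 97018 ± 29747 with coconut oil (SD, n = 6), and 10 of the 12 hepatocyte markers listed were tested, with a median log2 fold change of -0.02. The methods of the study describe the sampling of subcutaneous fat for this experiment, while the labels give liver, so adipocyte markers were summed as well. They reached 2.58 to 24.7 CPM in group R and 5.98 to 11.07 in group C over the whole list, leptin (LEP) was at 0 in all pigs, and none of them had enough reads to be tested. Markers of bile duct cells likewise stayed at 3.95 to 41.8 CPM in group R and 7.32 to 25.95 in group C. In whole tissue, fewer cells of a type and less RNA per cell cannot be told apart.

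Of 6528 genes tested, 9 differed between the diets at an adjusted p of 0.05 (0.138%; quasi-likelihood test of edgeR, p-values adjusted by Benjamini-Hochberg over all genes tested). BAG3, HSPA8, IYD and EGFR were higher with coconut oil (4 genes, 0.0613%), and UBL5, CDC42SE1, TMEM86B, CTBP1 and 1 gene without a symbol were lower (5 genes, 0.0766%). The unadjusted p was below 0.05 in 421 genes that were higher (6.45%) and 426 that were lower (6.53%). In 94 genes (1.44%) every pig of one diet lay above every pig of the other, 40 of them higher with coconut oil (0.613%) and 54 lower (0.827%). The median log2 fold change of all genes tested was -0.00, and 10% of genes lay below -0.41 and 10% above 0.41. Without coconut oil pig 3, 27 genes passed, 8 higher and 19 lower, and all 9 were among them. The unadjusted p was then below 0.05 in 476 genes that were higher and 478 that were lower of 6566, and 211 genes had groups without overlap (104 higher and 107 lower), which 1 pig less makes easier to reach. With DESeq2 in place of edgeR, 93 of the 3565 genes given an adjusted p passed (2.61%), 48 higher (1.35%) and 45 lower (1.26%), and 8 of the 9 were among them.

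**Figure D1:**
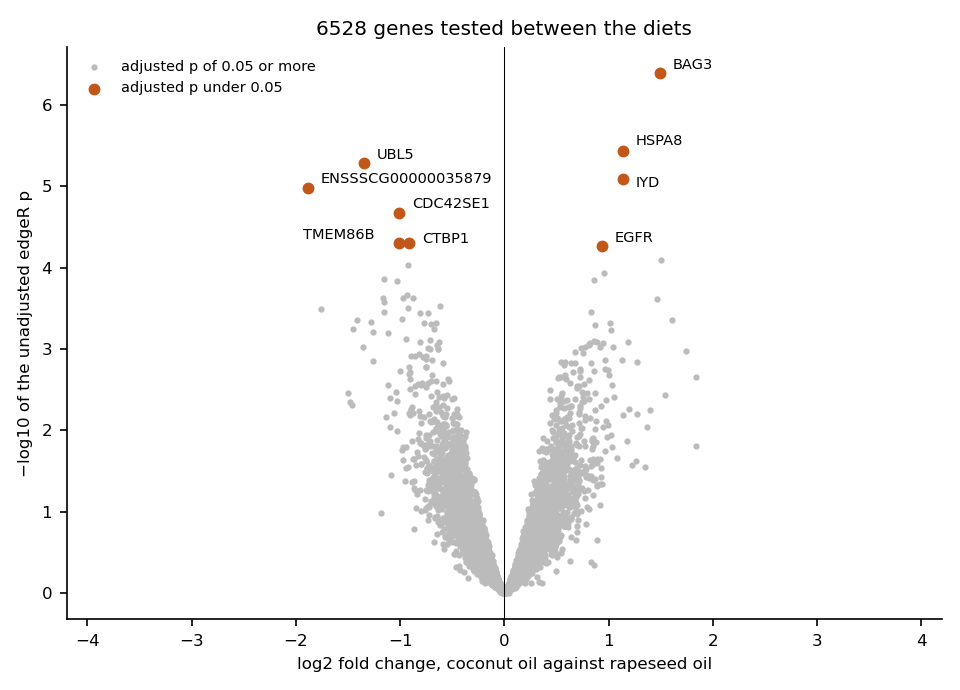
Log2 fold change of coconut oil against rapeseed oil (x axis) and −log10 of the unadjusted edgeR p (y axis) for the 6528 genes tested. The 9 named points are the genes with an adjusted p under 0.05, 4 on the right and 5 on the left, and BAG3 stands highest.

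The 2 calls with the smallest p among the rises were chaperone genes of the cytosol. BAG3, a co-chaperone that binds HSP70 proteins and hands damaged clients to autophagy, lies on chromosome 14 from 129510240 to 129533998. In rapeseed oil pigs 1 to 5 it was at 157, 172, 132, 229 and 117 CPM, and in group C it ran from 357 through a median of 408 to 587. Every coconut oil pig lay well above the highest rapeseed oil pig, with coconut oil pigs 1 and 6 the highest at 583 and 587. BAG3 rose by 1.50 on the log2 scale (standard error, SE, 0.19 and edgeR adjusted p = 0.00266), and the change was between 1.39 and 1.66 with any 1 pig left out.

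HSPA8, the HSP70 protein that cells make without stress and that folds new proteins, is on chromosome 9 from 49982278 to 49986760. Its values were 158, 191, 187, 146 and 115 CPM with rapeseed oil and 279 to 442 with coconut oil (median 333). The groups did not overlap, and the lowest coconut oil value was that of pig 3. HSPA8 rose by 1.14 (SE 0.17, edgeR adjusted p = 0.0115). It passed in all 11 fits without 1 pig, as did BAG3 and UBL5.

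UBL5 encodes a small ubiquitin-like protein that binds spliceosome proteins and, in worms, acts in the mitochondrial unfolded protein response. On chromosome 2 from 68702478 to 68708012, it stood at 96.1, 84.4, 83.9, 105 and 99.7 CPM in group R. In group C it ran from 26.8 through a median of 30.9 to 63.4, and coconut oil pigs 3 and 4, at 49.3 and 63.4, lay nearest to group R. UBL5 fell by 1.35 (SE 0.21, edgeR adjusted p = 0.0115), without overlap of the groups.

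IYD, the iodotyrosine deiodinase that recovers iodide from unused thyroid hormone precursors, is on chromosome 1 from 15756536 to 15779380. Rapeseed oil pigs 1 and 4, at 209 and 215 CPM, stood above pigs 2, 3 and 5, at 132, 143 and 129. With coconut oil the lowest value was 289, the median 347 and the highest 484. IYD rose by 1.14 (SE 0.19, edgeR adjusted p = 0.0134) and passed in 9 of the 11 fits without 1 pig.

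EGFR, the receptor for epidermal growth factor on hepatocytes, is on chromosome 9 from 139302410 to 139474632. Its rapeseed oil values were 42.5, 52.5, 32.3, 38.7 and 51.3 CPM, against 63.1 to 102 with coconut oil (median 82.4). Coconut oil pigs 1 and 6 were again the highest, at 102 and 97.6, and pig 3 the lowest. EGFR rose by 0.94 (SE 0.18, edgeR adjusted p = 0.0393), but it passed in only 3 of the 11 fits without 1 pig, with adjusted p-values up to 0.118. With the share of reads with several alignments as a covariate its change was 0.81 (edgeR adjusted p = 0.0816).

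The largest fall among the calls belonged to ENSSSCG00000035879, which has no symbol in the table used. It was at 37.3, 27.8, 37.4, 35.7 and 24.7 CPM in group R and from 1.63 through 8.78 to 13.9 in group C, with coconut oil pig 1 the lowest. It fell by 1.89 (SE 0.31, edgeR adjusted p = 0.0136) and passed in 8 of the 11 fits without 1 pig.

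A further 3 genes, TMEM86B, CDC42SE1 and CTBP1, fell by about the same amount. TMEM86B, the lysoplasmalogenase that cleaves the vinyl ether bond of lysoplasmalogens, was at 323, 251, 231, 196 and 263 CPM with rapeseed oil and at 75.0 to 163 with coconut oil (median 138). Coconut oil pigs 5 and 3, at 75.0 and 95.4, were lowest, and TMEM86B fell by 1.01 (SE 0.19, edgeR adjusted p = 0.0393). CDC42SE1, a small binding partner of the GTPase CDC42, was at 57.4, 77.2, 64.6, 62.2 and 54.3 CPM against 20.3 to 38.3 (median 33.2), lowest in coconut oil pig 4, and fell by 1.01 (SE 0.18, edgeR adjusted p = 0.0230).

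CTBP1, a transcriptional corepressor that senses NADH, was at 54.4, 65.9, 71.0, 47.9 and 53.3 CPM in group R. Coconut oil pig 2 was at 22.6 and the other coconut oil pigs lay between 30.5 and 35.05. CTBP1 fell by 0.91 (SE 0.17, edgeR adjusted p = 0.0393). CDC42SE1 passed in 7 of the 11 fits without 1 pig, while TMEM86B and CTBP1 each passed in 3. Beside the share of reads with several alignments, TMEM86B kept an edgeR adjusted p of 0.0128, whereas CDC42SE1 and CTBP1 were at edgeR adjusted p-values of 0.0578 and 0.0751.

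**Figure D2:**
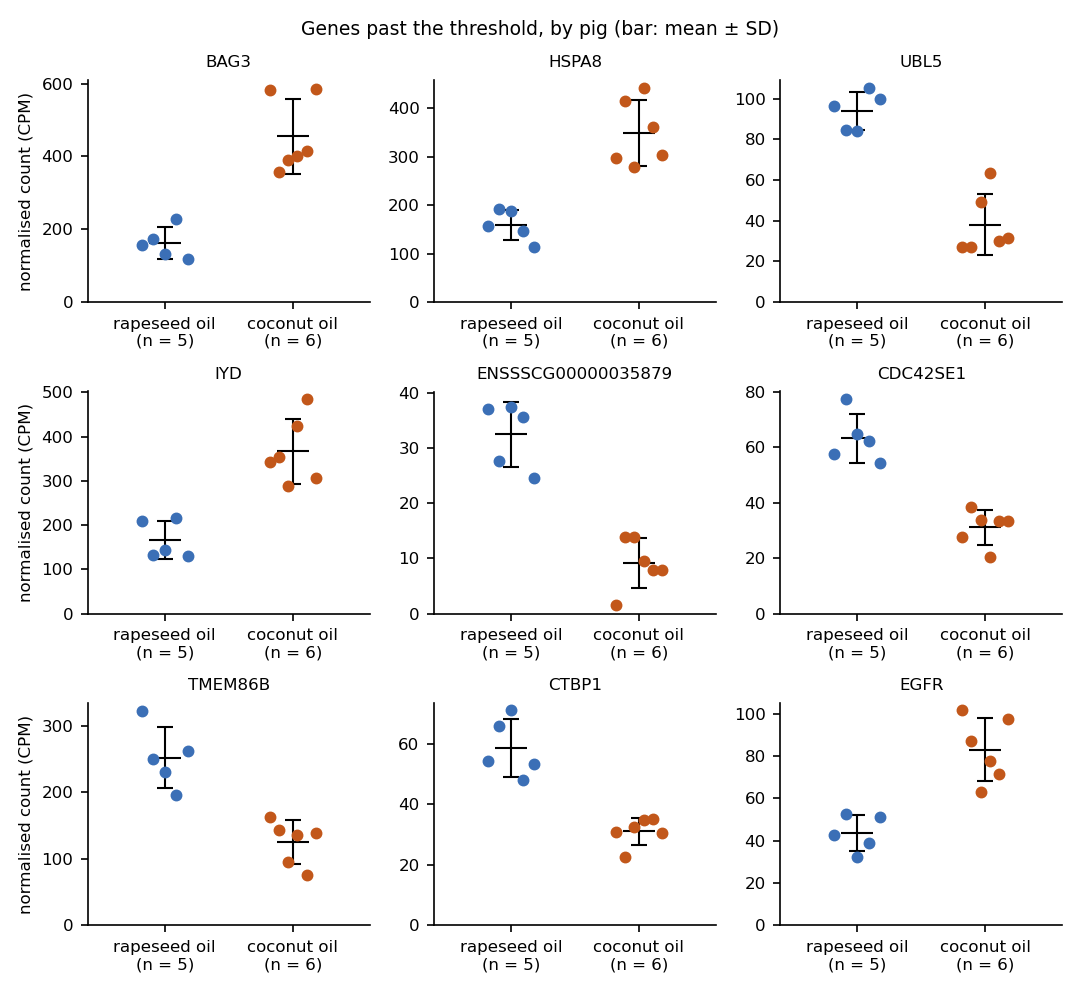
Normalised count in CPM (y axis, starting at 0) of the 9 genes past the threshold, 1 point per pig, with rapeseed oil on the left (n = 5) and coconut oil on the right (n = 6) of each panel. Bars give the mean ± SD. In all 9 panels the points of the groups are apart, by the widest margin relative to the level in BAG3 and ENSSSCG00000035879.

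In gilts alone and barrows alone, all 9 genes had the direction of the full comparison, but 0 of them passed in gilts (1 other gene did) and BAG3 was the only one among the 7 genes that passed in barrows. With sex as a covariate 7 of the 9 passed, and CTBP1 and EGFR were at an edgeR adjusted p of 0.0621 each. BAG3 was at 1.32 in gilts and 1.86 in barrows, UBL5 at -1.46 and -1.21, and IYD at 1.02 and 1.42. The interaction of diet and sex, which tests whether the diet difference itself differs between the sexes, passed for 0 genes in edgeR, with 260 genes at an unadjusted p below 0.05 and a smallest edgeR adjusted p of 0.661. Each sex gave 2 or 3 pigs per diet to this test.

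Among the genes next in rank, none of which passed in edgeR, several were regulators of liver metabolism. Passing depended on the tool: with DESeq2, 39 of the 104 named genes gained a call that edgeR did not give. The study's own DESeq2 comparison of these diets called 93 genes, 48 higher and 45 lower, the same counts as DESeq2 gave here. Its calls included ALAS1, MLXIPL, NOCT, FTCD and PDCD4. They also included HSPA5, HSPA9, SIRT3, RPS3, BTG1, C1QA, ERH, SDHD and UOX, which are given below with their edgeR values. ALAS1, the first and rate-limiting enzyme of heme synthesis, was at 30.5, 79.2, 49.1, 111 and 42.4 CPM in group R and at 107 to 264 in group C (median 164). Rapeseed oil pig 4 reached just above the lowest coconut oil pig, so the groups overlapped, and the log2 fold change was 1.50 (SE 0.30, edgeR adjusted p = 0.0530). MLXIPL, which encodes the glucose-responsive transcription factor ChREBP, was at 79.0, 102, 103, 64.2 and 154 CPM against 28.2 to 61.0 (median 49.3). Its groups did not overlap, with coconut oil pigs 5 and 6 the lowest, and its log2 fold change was -1.15 (SE 0.24, edgeR adjusted p = 0.0644).

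NOCT, nocturnin, a rhythmically expressed phosphatase of NADPH, had the values 20.9, 33.96, 16.8, 54.05 and 27.6 CPM with rapeseed oil. With coconut oil it ran from 36.6 through 80.1 to 188, highest in pig 2 and lowest in pig 1, which lay within the range of group R. The log2 fold change of NOCT was 1.61 (SE 0.38, edgeR adjusted p = 0.0897). TMCC3, a membrane protein of the endoplasmic reticulum, was at 4.12 to 10.3 CPM against 11.07 to 28.8, with log2 fold change 1.47 (edgeR adjusted p = 0.0794). EFNB2, the membrane ligand ephrin-B2, varied little in group R, from 19.4 to 20.7 CPM, and was at 26.3 to 45.1 in group C, a change of 0.83 (edgeR adjusted p = 0.0849).

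On the lower side of the same ranks, FTCD, which passes a one-carbon unit from histidine to folate, had 126 ± 26.9 CPM in group R and 58.6 ± 25.5 in group C, with log2 fold change -1.15 (edgeR adjusted p = 0.0813). FN1, the plasma and matrix protein fibronectin, had 369 ± 50.1 and 211 ± 61.2 CPM, a change of -0.81 (edgeR adjusted p = 0.0849). ANKH, an exporter of pyrophosphate, citrate and ATP, was at 32.7 ± 4.53 and 16.4 ± 4.59 CPM (log2 fold change -1.03, edgeR adjusted p = 0.0644). These 3 genes were between 0.66 and 1.26 lower on the log2 scale in each sex taken alone.

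Further genes of these ranks were lower with coconut oil without passing in edgeR. CDHR5, a cadherin of the microvillar border, had a log2 fold change of -1.76 on 19.5 ± 7.62 CPM in group R, RNF167, a ubiquitin ligase of endosomes, had -1.41 on 13.7 ± 2.28, and MRS2, the magnesium channel of mitochondria, had -1.35 on 20.8 ± 9.10. SNTB1, a syntrophin of the membrane skeleton, was at -1.28, and coconut oil pig 3, at 112 CPM, lay within the range of group R there. PDCD4, an inhibitor of translation, ARF5, a GTPase of vesicle traffic, TMEM87B, a Golgi membrane protein, and MRPL3, of the mitochondrial ribosome, lay between -0.98 and -0.88. Their edgeR adjusted p-values ranged from 0.0794 for PDCD4, ARF5 and MRPL3 to 0.104 for MRS2.

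**Figure D3:**
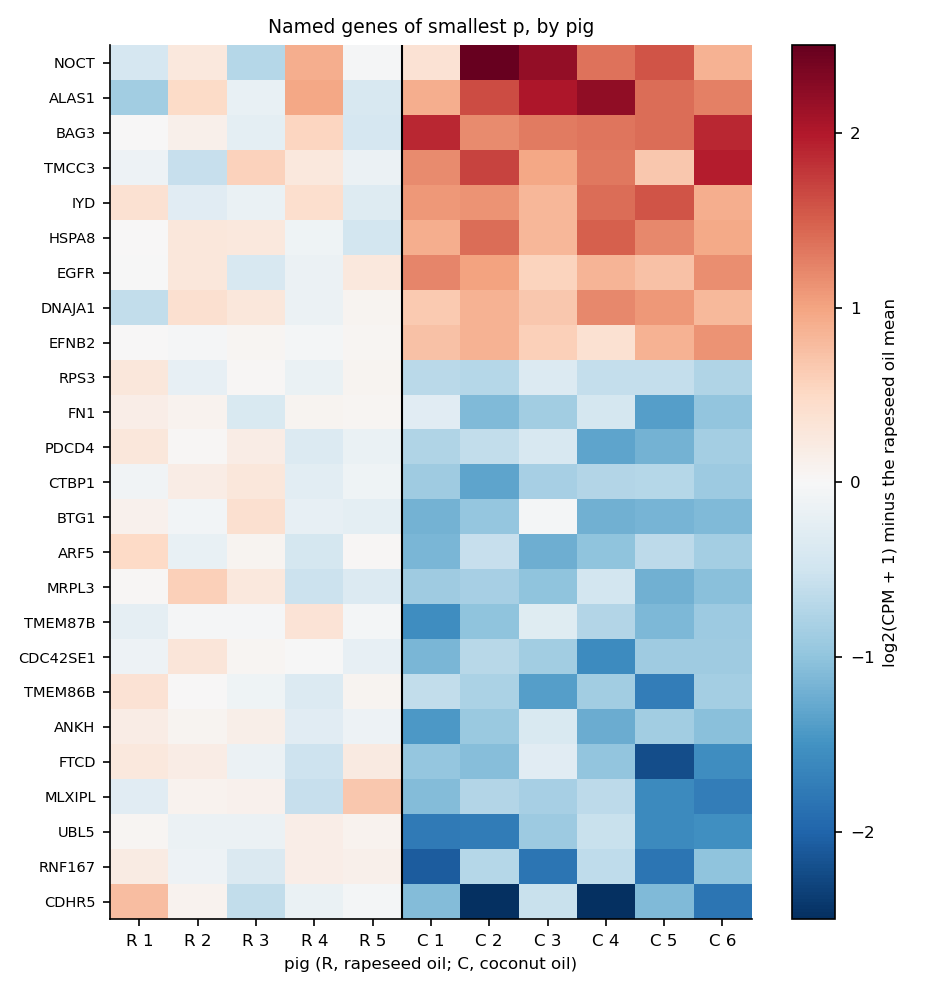
Named genes with a symbol and the smallest p (rows), by pig (columns, rapeseed oil R 1 to R 5 and coconut oil C 1 to C 6), coloured by log2(CPM + 1) minus the mean of the rapeseed oil pigs. The coconut oil columns are red in the upper rows and blue in the lower rows, with paler cells for pig C 3 in BTG1, TMEM87B and FTCD.

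Genes were then grouped by function, into lists chosen with earlier results of these data known, so the counts describe the members and test nothing. Each group is described by how many tested members had an unadjusted p below 0.05 in each direction and by its median log2 fold change. At that level 6.45% of all genes were higher and 6.53% lower, and their median was -0.00. Of 28 cytosolic chaperones and co-chaperones tested, 10 were higher and 0 lower at that level, 2 of them (BAG3 and HSPA8) past the adjusted threshold, and the median was 0.20. Without coconut oil pig 3 the count was also 10 higher and 0 lower. DNAJA1, the J-domain partner that loads clients onto HSP70, was at 105, 213, 198, 146 and 169 CPM in group R and 254 to 371 in group C (log2 fold change 0.86, edgeR adjusted p = 0.0644), without overlap. ZFAND2A, a proteasome-binding protein induced by arsenite and heat, was at 17.9 ± 7.49 and 41.1 ± 14.8 CPM (log2 fold change 1.19, edgeR adjusted p = 0.104). The median member of the list lay between 0.12 and 0.51 above the rapeseed oil mean in each coconut oil pig, and between -0.12 and 0.14 in the rapeseed oil pigs, so that rapeseed oil pig 2 lay above coconut oil pig 6. The list median was between 0.11, without coconut oil pig 4, and 0.24 with any pig left out, and at 0.13 with at least 10 reads required in every pig.

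The lists of the other compartments, which also hold proteins other than chaperones, were split in direction. In the endoplasmic reticulum list, 3 of 29 members were higher and 4 lower, with a median of 0.11. HSPA5 (BiP), the main HSP70 protein of that compartment, was at 741, 533, 563, 526 and 476 CPM in group R and from 596 through 983 to 1373 in group C, with log2 fold change 0.76 (SE 0.20, edgeR adjusted p = 0.110). Coconut oil pigs 2 and 3 lay within the range of group R. TRIB3, a pseudokinase induced by ATF4 and CHOP, was at 1.40 (edgeR adjusted p = 0.198), whereas PDIA3, a disulfide isomerase, and SYVN1, the ubiquitin ligase that clears misfolded proteins, were at -0.81 and -0.75 (edgeR adjusted p-values 0.104 and 0.114). The groups did not overlap in PDIA3, at 225 to 378 CPM with rapeseed oil and 104 to 211 with coconut oil.

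In the mitochondrial list of chaperones and proteases, 1 of 13 members was higher and 3 lower, with a median of -0.01. The 3 lower members, UBL5 (past the adjusted threshold), SIRT3 and CLPP, are not chaperones. HSPA9, the mitochondrial HSP70 that pulls proteins into the matrix, was at 296 ± 41.6 and 402 ± 23.6 CPM, with log2 fold change 0.44 (edgeR adjusted p = 0.179). SIRT3, the main deacetylase of the mitochondrial matrix, was at 49.9, 60.7, 36.2, 39.8 and 41.5 CPM against 16.9 to 33.3 (median 27.6), lowest in coconut oil pig 3. Its groups did not overlap, and the change was -0.78 (SE 0.21, edgeR adjusted p = 0.114). CLPP, a matrix protease, was at -1.03 (edgeR adjusted p = 0.182).

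Factors of ribosome assembly in the nucleolus had 6 of 25 members higher, 0 lower and a median of 0.31, and 9 were higher without coconut oil pig 3. NOB1, the nuclease that finishes the small subunit's RNA, was at 16.5 ± 3.79 and 33.4 ± 9.06 CPM without overlap (log2 fold change 1.02, edgeR adjusted p = 0.0897), and DDX24, a nucleolar helicase, at 70.6 ± 6.85 and 105 ± 18.7 (0.58, edgeR adjusted p = 0.140). Translation factors had 4 of 36 higher and 2 lower, with a median of 0.08, and 6 and 4 without coconut oil pig 3. EIF5B, which joins the ribosomal subunits, and EIF3A, the largest subunit of its complex, were at 0.58 and 0.55 (edgeR adjusted p-values 0.123 and 0.141). Cytosolic ribosomal proteins had 2 of 46 higher, 3 lower and a median of -0.01. RPS3, of the small subunit, was at 876 to 1226 CPM in group R and 605 to 800 in group C, a change of -0.62 (edgeR adjusted p = 0.0849), without overlap.

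Proteasome subunits had 3 of 27 members higher, 0 lower and a median of 0.06, among them PSMC2, an ATPase of the 19S cap, at 0.58 (edgeR adjusted p = 0.182). Spliceosome proteins, to which UBL5 also belongs, had 1 of 38 higher and 4 lower, with a median of 0.04. ERH, a small protein of RNA processing, was at 229 ± 47.5 and 148 ± 21.8 CPM (-0.64, edgeR adjusted p = 0.104), and U2AF1, which reads the 3′ splice site, at 0.63 (edgeR adjusted p = 0.149).

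**Figure D4:**
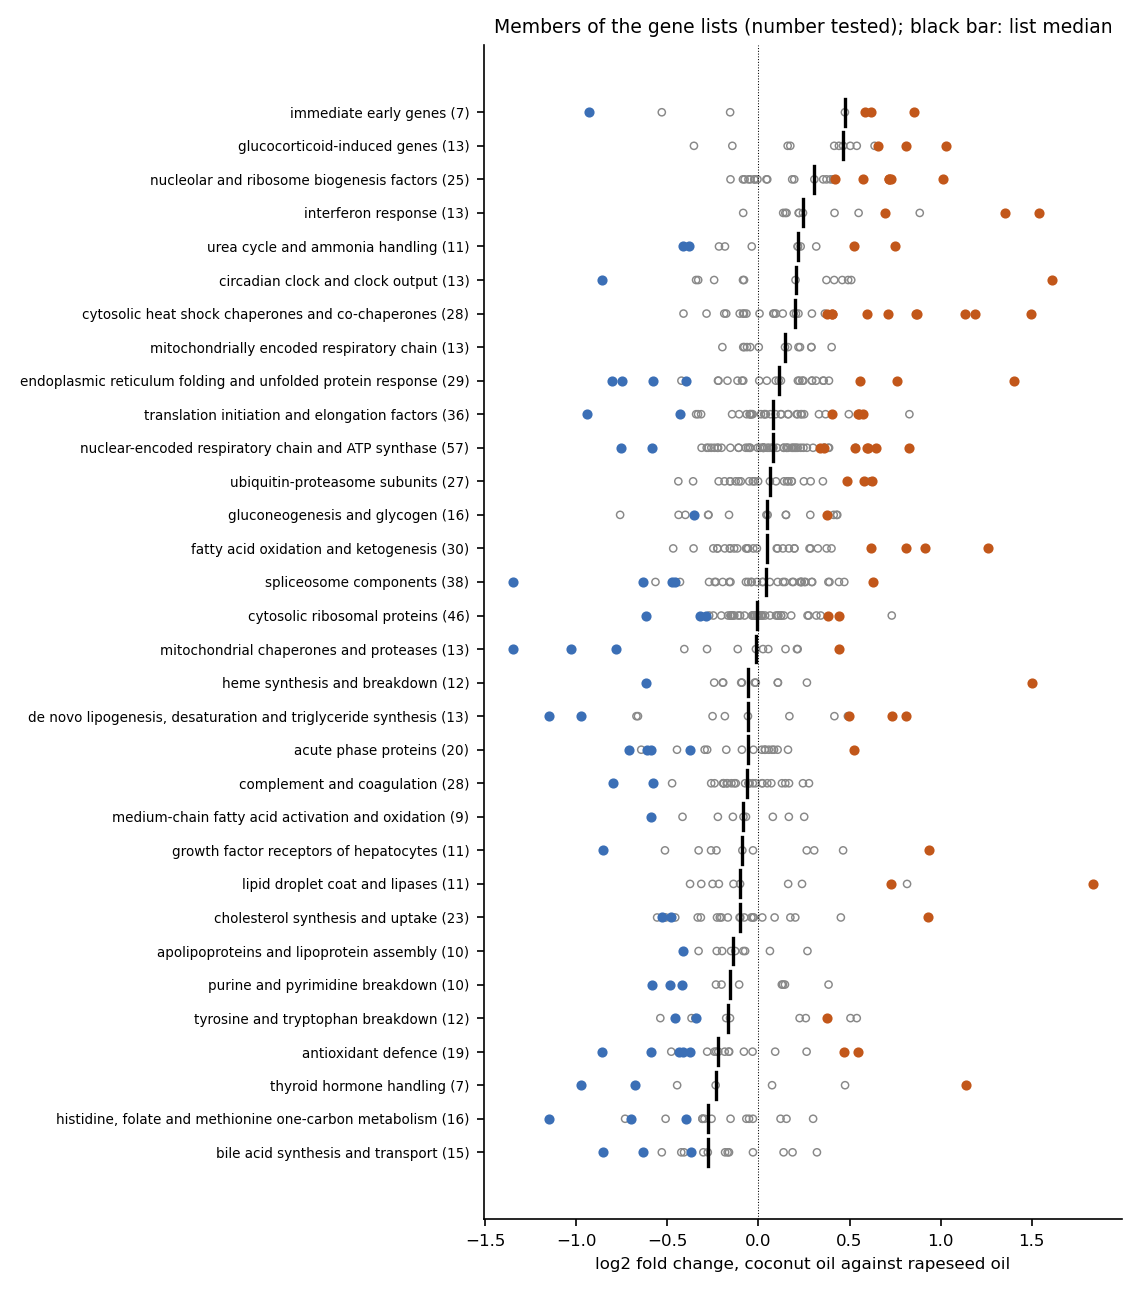
Log2 fold change of coconut oil against rapeseed oil (x axis) for each tested member of the 32 function lists (rows, number tested in brackets). Filled points have an unadjusted p below 0.05 (orange higher, blue lower), open points do not, and black bars are list medians. Medians run from -0.28 for bile acids to 0.47 for immediate early genes, and most lists hold points on both sides of 0.

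Genes of fatty acid oxidation and ketogenesis had 4 of 30 members higher and 0 lower, with a median of 0.05. CPT1A, the enzyme that commits long-chain fatty acids to mitochondria, was at 91.6, 92.6, 52.9, 166 and 127 CPM with rapeseed oil. In group C it ran from 140 through 198 to 266, and coconut oil pig 3, the lowest, lay below rapeseed oil pig 4. The log2 fold change of CPT1A was 0.92 (SE 0.23, edgeR adjusted p = 0.104).

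ANGPTL4, a secreted inhibitor of lipoprotein lipase, was at 103 to 212 CPM against 172 to 438 (0.81, edgeR adjusted p = 0.179), and PPARGC1A, a coactivator of mitochondrial genes, at 0.62 (edgeR adjusted p = 0.269). PPARA, the receptor that drives this programme, had 0 reads in every rapeseed oil pig and at most 1 in a coconut oil pig. FGF21, a hormone it induces, had at most 2 reads in a pig. Too few reads were counted to compare either gene, and the reason was not tested.

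The genes that activate and oxidise medium-chain fatty acids had 0 of 9 higher, 1 lower and a median of -0.08. ACADM, the medium-chain acyl-CoA dehydrogenase, was at 437 ± 109 and 490 ± 99.8 CPM, with log2 fold change 0.17 (SE 0.19, edgeR adjusted p = 0.777), at -0.14 in gilts and 0.67 in barrows. ACOT13, a thioesterase of medium and long acyl-CoA, was at 411 ± 112 and 274 ± 37.6 CPM (-0.59, edgeR adjusted p = 0.176).

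Lipogenesis and triglyceride synthesis had 3 of 13 members higher and 2 lower, with a median of -0.06. LPIN2, a phosphatidate phosphatase, was at 84.9, 170, 90.4, 155 and 96.7 CPM with rapeseed oil and 175 to 278 with coconut oil, without overlap but with a narrow gap (log2 fold change 0.81, edgeR adjusted p = 0.104). THRSP, a nuclear protein that goes with lipogenesis, was at -0.97 (edgeR adjusted p = 0.272). FASN, the fatty acid synthase, and SCD, the stearoyl-CoA desaturase, were at -0.66 and -0.25 (edgeR adjusted p-values 0.420 and 0.806), and in both genes coconut oil pig 2 was far above the other coconut oil pigs. FADS2, which desaturates polyunsaturated fatty acids, was at 394 ± 96.1 and 555 ± 90.5 CPM (0.50, edgeR adjusted p = 0.224).

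Among 11 genes of lipid droplets, 2 were higher and 0 lower, with a median of -0.10. Both act on the lipase ATGL. G0S2, its inhibitor, was at 12.7, 17.5, 7.75, 16.3 and 3.95 CPM in group R, and in group C it was at 6.51, 17.4 and 22.7 in pigs 1, 2 and 4 and at 83.1, 59.6 and 66.0 in pigs 3, 5 and 6. Its log2 fold change was 1.84 (SE 0.52, edgeR adjusted p = 0.140). ABHD5, the activator of the same lipase, was at 121 ± 30.5 and 200 ± 52.6 CPM (0.73, edgeR adjusted p = 0.133).

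**Figure D5:**
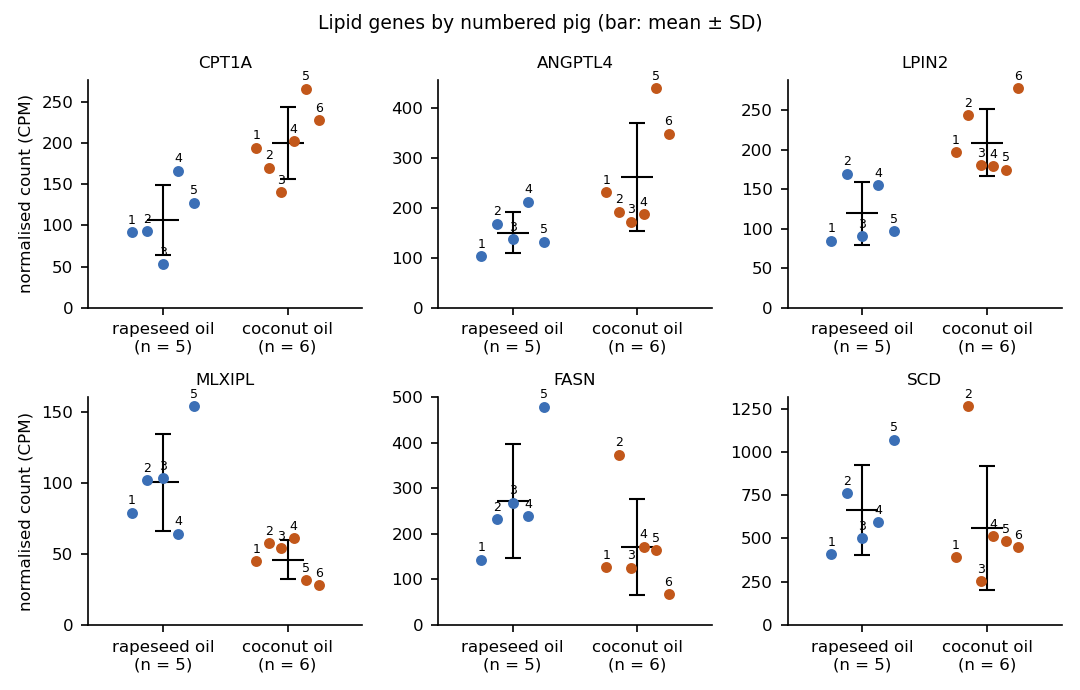
Normalised count in CPM (y axis) of 6 genes of lipid metabolism, 1 numbered point per pig, with rapeseed oil on the left (n = 5) and coconut oil on the right (n = 6) of each panel, and bars for the mean ± SD. MLXIPL and LPIN2 are the panels without overlap, while coconut oil pig 2 lies above the other coconut oil pigs in FASN and SCD.

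Cholesterol synthesis and uptake had 1 of 23 members higher and 2 lower, with a median of -0.10. TM7SF2, a sterol reductase, was at 0.93 and DHCR7, the last enzyme of the pathway, at -0.48 (edgeR adjusted p-values 0.195 and 0.270).

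Bile acid genes had 0 of 15 higher, 3 lower and a median of -0.28. Without coconut oil pig 3, 5 were lower, and the median was -0.15 without rapeseed oil pig 4 and -0.18 without coconut oil pig 6. FGFR4, the hepatocyte receptor for the gut hormone that restrains bile acid synthesis, was at 26.8 ± 9.61 and 14.8 ± 3.27 CPM (-0.86, edgeR adjusted p = 0.171). ABCG8, of the sterol pump into bile, and ABCB11, the bile salt export pump, were at -0.63 and -0.37 (edgeR adjusted p-values 0.299 and 0.301). CYP7A1, the rate-limiting enzyme of bile acid synthesis, was at 168 ± 59.2 and 118 ± 59.0 CPM (-0.53, edgeR adjusted p = 0.532). Apolipoproteins had 0 of 10 higher and 1 lower, APOA2 at -0.41 (edgeR adjusted p = 0.309), with a median of -0.14. Without coconut oil pig 3 the apolipoproteins had 0 higher and 0 lower.

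One-carbon metabolism of histidine, folate and methionine had 0 of 16 members higher and 3 lower, with a median of -0.28. Beside FTCD these were GNMT, which uses up methyl groups on glycine, at 436 ± 121 and 268 ± 96.6 CPM (-0.70, edgeR adjusted p = 0.217), and DMGDH, of choline breakdown, at 421 ± 57.6 and 320 ± 41.8 without overlap (-0.40, edgeR adjusted p = 0.255). The list median was -0.39 in gilts and 0.03 in barrows, -0.18 without coconut oil pig 4 and -0.16 without a filter on low counts. Purine and pyrimidine breakdown had 0 of 10 higher and 3 lower, with a median of -0.15, and UOX, urate oxidase, was at 539 ± 73.2 and 385 ± 60.7 CPM (-0.49, edgeR adjusted p = 0.178).

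The urea cycle was split, with 2 of 11 higher, 2 lower and a median of 0.21, which was as low as 0.05 with a pig left out (rapeseed oil pig 5). The list median was -0.02 in gilts and 0.22 in barrows. ARG1, arginase, and SLC25A15, the ornithine carrier, were at 0.52 and 0.75 (edgeR adjusted p-values 0.334 and 0.232). OTC, ornithine transcarbamylase, was at 465 ± 29.3 and 349 ± 68.1 CPM without overlap (-0.41, edgeR adjusted p = 0.261), and GLUD1, glutamate dehydrogenase, at -0.38 (edgeR adjusted p = 0.377). Tyrosine and tryptophan breakdown had 1 of 12 higher and 2 lower (median -0.17), with GSTZ1, an isomerase of tyrosine breakdown, at -0.46 (edgeR adjusted p = 0.206).

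Antioxidant enzymes had 2 of 19 members higher and 5 lower, with a median of -0.22 (-0.12 without rapeseed oil pig 1), and without coconut oil pig 3 the count was 0 higher and 5 lower. CAT, the peroxisomal catalase, was at 7152, 6982, 7554, 6880 and 6276 CPM in group R and 4459 to 6457 in group C, where only pig 3 reached the range of group R (log2 fold change -0.41, edgeR adjusted p = 0.239). SOD2, the mitochondrial superoxide dismutase, was at 153 ± 16.0 and 118 ± 8.28 CPM without overlap (-0.38, edgeR adjusted p = 0.255). GCLC, the first enzyme of glutathione synthesis, was at -0.86 and PRDX6, a peroxiredoxin, at -0.59 (edgeR adjusted p-values 0.151 and 0.195).

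Of 12 heme genes tested, ALAS1 was higher and 1 was lower, with a median of -0.06. FECH, the ferrochelatase that ends the pathway, was at -0.62 (edgeR adjusted p = 0.316). Nuclear genes of the respiratory chain had 7 of 57 higher, 2 lower and a median of 0.08. NDUFB9 and NDUFA6, of complex I, were at 0.83 and 0.53 (edgeR adjusted p-values 0.118 and 0.140), and SDHD, of complex II, at 165 ± 15.3 and 98.9 ± 32.5 CPM without overlap (-0.75, edgeR adjusted p = 0.125). Of the 13 genes encoded by mitochondrial DNA, 0 were higher and 0 lower (median 0.15). Gluconeogenesis and glycogen had 1 of 16 higher and 1 lower (median 0.05).

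Genes that glucocorticoids induce had 3 of 13 members higher, 0 lower and a median of 0.46, at 0.16 in gilts and 0.86 in barrows. Without coconut oil pig 3 the count was 3 higher and 1 lower. The median was 0.26 without rapeseed oil pig 1, 0.79 without rapeseed oil pig 4 and 0.74 with the share of reads with several alignments as a covariate. ZBTB16, a transcription factor strongly induced by cortisol, was at 24.6, 41.2, 28.4, 73.4 and 30.6 CPM with rapeseed oil and 64.6 to 109 with coconut oil (log2 fold change 1.03, SE 0.25, edgeR adjusted p = 0.0945). Only rapeseed oil pig 4 lay within the range of group C, and the list's median member was also highest in that pig among all 11, at 0.93 above the rapeseed oil mean. DUSP1, a phosphatase of MAP kinases, was at 0.66 (edgeR adjusted p = 0.299).

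Immediate early genes had 3 of 7 higher, 1 lower and a median of 0.47, at 0.16 in gilts and 0.33 in barrows. Without coconut oil pig 3 the count was 2 higher and 1 lower. FOS and JUN, the subunits of AP-1, were at 0.85 and 0.62 and BTG1, an inhibitor of proliferation, at -0.93 (edgeR adjusted p-values 0.361, 0.250 and 0.0849). Of 13 clock genes (median 0.20) 1 was higher (NOCT) and 1 lower, BHLHE40, a repressor of the clock, at 39.9 ± 11.85 and 22.4 ± 4.49 CPM (-0.86, edgeR adjusted p = 0.114). Without coconut oil pig 3, 15 clock genes were tested, of which 1 was higher and 3 were lower. PER1, a core clock repressor, was at 0.42 (edgeR adjusted p = 0.463), and NR1D1, another, had at most 2 reads per pig. The times of day of slaughter are not in the labels.

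In the thyroid list, of 7 members tested, IYD was higher and 2 were lower at an unadjusted p below 0.05, THRB, the main hepatic thyroid hormone receptor, at 37.7 ± 11.6 and 24.0 ± 4.48 CPM (-0.68, edgeR adjusted p = 0.211) and THRSP. The list median was -0.24, at 0.23 in barrows and 0.07 without a filter on low counts. Of 11 growth factor receptors, EGFR was higher and FGFR4 lower, with a median of -0.09.

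Plasma proteins of the acute phase had 1 of 20 members higher and 4 lower, with a median of -0.06. The list pools proteins that rise and proteins that fall in the acute phase, so these values give no direction of that response. SERPINA6, the cortisol carrier of plasma, was at 563, 493, 360, 429 and 416 CPM in group R and 209 to 382 in group C (log2 fold change -0.71, SE 0.18, edgeR adjusted p = 0.104). Coconut oil pig 1, at 382, was the only one above the lowest rapeseed oil pig. ITIH4 and A2M, both protease inhibitors or their kin, were at -0.59 and -0.61, and FETUB, fetuin-B, at 0.52 (edgeR adjusted p-values 0.229, 0.253 and 0.289). Complement and coagulation had 0 of 28 higher, 2 lower and a median of -0.06.

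Interferon-induced genes had 3 of 13 members higher and 0 lower, with a median of 0.24. IFI6, an antiviral membrane protein, was at 166 to 967 CPM in group R, and coconut oil pigs 5, 1 and 4, at 4050, 1984 and 1390, lay above that range (log2 fold change 1.54, SE 0.46, edgeR adjusted p = 0.174). Most of the other genes turned on 1 animal: the median member of the list was 1.77 above the rapeseed oil mean in coconut oil pig 1 and between -0.15 and 0.16 in the other coconut oil pigs. Without pig 1 the list median was -0.12, against 0.16 to 0.39 with any other pig left out, and USP18, which damps the interferon receptor, went from 1.35 to 0.59.

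Markers of cell types were counted in the same way, and of the 10 hepatocyte markers tested 0 were higher and 2 lower. Sinusoidal endothelial markers had 3 of 8 members higher and 1 lower (median 0.19, and 0.07 without rapeseed oil pig 1 and 0.29 without rapeseed oil pig 3). Their median was 0.48 in gilts and -0.02 in barrows, and without coconut oil pig 3 the count was 3 higher and 2 lower. Their summed level was 586 to 873 CPM in group R and 745 to 1037 in group C. LYVE1, a hyaluronan receptor of these cells, was at 31.3, 44.3, 29.7, 29.6 and 31.6 CPM against 44.4 to 93.5, so that rapeseed oil pig 2 all but touched the lowest coconut oil pig (log2 fold change 0.86, edgeR adjusted p = 0.104). S1PR1, the sphingosine phosphate receptor, and MRC1, the mannose receptor, were at 0.82 and 0.55 and KDR, the VEGF receptor, at -0.41 (edgeR adjusted p-values 0.104, 0.169 and 0.385). RHOJ, a GTPase of endothelial cells outside that list, was at 4.95 ± 1.38 and 12.5 ± 4.87 CPM (1.27, edgeR adjusted p = 0.118).

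Kupffer cell markers had 0 of 10 members higher and 2 lower, with a median of -0.11. Summed, they were at 734 to 1366 CPM in group R and 787 to 1055 in group C. C1QA, a complement subunit made by macrophages, was at 542 ± 141 and 345 ± 69.4 CPM (-0.65, edgeR adjusted p = 0.145), and TIMD4, a receptor of resident macrophages, at -0.68 (edgeR adjusted p = 0.195). Stellate cell and fibroblast markers had 1 of 8 higher, ACTA2, smooth muscle actin, at 0.93 (edgeR adjusted p = 0.315), and a median of -0.18. Of 2 B and plasma cell markers tested, 0 were higher and 1 lower, and their summed level was 214 to 301 CPM in group R and 209 to 332 in group C. The lower one, JCHAIN, the joining chain of plasma cells, was at 31.6 ± 15.7 and 13.1 ± 4.73 CPM (-1.26, edgeR adjusted p = 0.118), a small part of that sum. XBP1, a transcription factor that plasma cells need, was at 0.12 (edgeR adjusted p = 0.810). These 2 markers are too few to tell whether such cells differed in number, and the sum cannot be taken as a level of these cells. Of 4 erythroid and 2 T and NK cell markers tested, 0 were higher and 0 lower. The part of these cells in the other differences was not tested.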

How the data were processed

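Liver RNA of 11 pigs was sequenced with a 3′ mRNA kit, 1 library per pig. Quality checks (FastQC), trimming (FLEXBAR), mapping to Sus scrofa 11.1 (TopHat) and counting per gene of Ensembl 96 (HTSeq) were done by the authors. The deposited counts are raw reads for 25880 genes, of which 14857 have a symbol in the table used, and TMEM86B takes the symbol that the study pairs with its identifier. Counting skipped reads with several alignments, which makes genes with near-identical copies uncertain. Tallies of unassigned reads served only for read shares.

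The counts of both groups were fitted without covariates with edgeR 4.0.16 (quasi-likelihood test, TMM, filterByExpr with a minimum count of 10 and minimum total of 15) in R 4.3.3, with Benjamini-Hochberg adjustment, a threshold of 0.05 and no fold threshold. Rapeseed oil was the reference. Standard errors are the log2 fold change divided by the square root of F. CPM use TMM library sizes. Positions are from RefSeq on the same assembly, matched by symbol.

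Genes named are all called genes, the 25 smallest p-values with a symbol, the 4 members of smallest p per list, the 5 largest rises and 5 largest falls without overlap, and a fixed set of 18, of which HSF1 had 0 reads in every pig. Some of these genes are not reported here. The members and lists were chosen with earlier results of these data known. Alternatives were DESeq2 1.42.0, RLE, 2 other filters, sex or read share as covariates, a replicate block, each pig left out, and (chosen after seeing the data) each sex alone. In simulated data with 200 of 6528 genes changed, edgeR recovered 71% of 2-fold and 85% of 4-fold changes with 6.02% false calls. DESeq2 gave 73%, 96% and 8.15%, and with no gene changed edgeR called 0 genes and DESeq2 called 1. The first simulation had 166 edgeR calls, so its Benjamini-Hochberg cut was looser than in the comparison of diets, which had 9. Its shares therefore do not tell how many real changes were found here.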

Additional observations from a re-analysis of the deposited data

Results flagged for a closer look

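The 216 groups examined covered the 104 genes named and the measures of reads, each by diet. Of these groups, 18 held a pig far from the others of its diet by Dixon's test at 95%. All 18 were groups of gene values, and chance alone flags about 1 group in 20. Coconut oil pig 1 was highest of its diet in 2 interferon-induced genes, USP18 at 52.9 CPM (others 4.30 to 15.8) and IFIH1 at 124 (33.2 to 50.2), and in JUN at 254 (109 to 159) and PER1 at 152 (73.9 to 100.4). Over the 13 tested interferon genes it was the highest coconut oil pig in 10 and the highest of all 11 pigs in 9.

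Coconut oil pig 2 stood apart in 3 genes of fatty acid synthesis and desaturation, at 374 CPM for FASN (others 68.3 to 172), 1263 for SCD (254 to 513) and 729 for FADS2 (465 to 546). It was the highest coconut oil pig in 5 of the 13 tested lipogenic genes. It was also low in CTBP1, at 22.6 CPM (30.5 to 35.05).

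Coconut oil pig 3, the library with the fewest reads, was high in RPS3 at 800.4 CPM (605 to 672), BTG1 at 134 (59.8 to 70.5), SNTB1 at 112 (25.2 to 49.2) and CLPP at 20.01 (9.03 to 11.3).

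In group R, pig 1 was high in SNTB1 at 217 CPM (others 88.8 to 108) and GSTZ1 at 364 (234 to 261). Rapeseed oil pig 3 was low in FN1 at 281 CPM (379 to 410) and EIF3A at 234 (310.0 to 337) and high in MRC1 at 191 (126 to 142), and rapeseed oil pig 2 was high in LYVE1 at 44.3 (29.6 to 31.6).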

How the results depend on the processing

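The count of 9 called genes became 93 with DESeq2 (which gave ENSSSCG00000035879 no adjusted p), 82 without a filter on low counts, 14 with at least 10 reads in every pig and 1 in gilts only (none of the 9; 7 in barrows only, 1 of the 9), and it ran from 3 to 27 with each pig left out: 27, 25 and 19 without coconut oil pig 3, rapeseed oil pig 4 and coconut oil pig 1, and 3, 4, 4 and 5 without rapeseed oil pig 3, rapeseed oil pig 2, coconut oil pig 6 and coconut oil pig 4. The cause was not tested. Labels give both groups replicate numbers without saying that these pair pigs, and correlations of same-numbered pigs' deviations ran from -0.01 to 0.10. Among coconut oil pigs 1 to 5, the best-correlated one had the same number for rapeseed oil pigs 1, 2 and 3 and another number for pigs 4 and 5. Whether the numbers pair pigs was not tested. With the replicate block (pigs 1 to 5 of each diet) 8 genes passed, 5 of them among the 9, against 4 without the block. Leaving out pigs, the difference between diets ran from -6.98 to -2.39 points for reads with several alignments, from 1.59 to 3.73 for reads outside genes (full value 2.51, exact permutation p = 0.232, and p = 0.0476 without coconut oil pig 3), from 0.38 to 3.00 for reads on genes and from 0.60 to 288 genes for genes with more than 1 read. Log2 fold changes changed sign in gilts only for ACADM (-0.14), and with a pig left out for ALB (-0.10 without coconut oil pig 3, range to 0.20), neither of which had passed. Of 2029 values of named genes under alternatives, 1858 kept direction and side of the threshold, 59 lost and 110 gained a call. Of the 110, 39 came with DESeq2. Of 780 list medians, 26 moved beyond the spread between pigs, which 1 far pig widens. The interferon median counts as unmoved by that rule, though it was 0.24 with all pigs and -0.12 without coconut oil pig 1. Only 6528 of 25880 genes had enough reads to be tested, which limits what can be compared. Some list members, among them FDPS of cholesterol synthesis, GPX4 of antioxidant defence and the ribosomal protein gene RPS27A, had 0 reads in every pig. Whether depth or something else left genes without reads was not tested.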

Other observations

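Coconut oil pig 3, which had the fewest reads on genes and the largest share of reads with several alignments, was the coconut oil pig nearest to the rapeseed oil pigs in 140 of the 421 genes with a higher level at an unadjusted p below 0.05 (33.3%) and in 111 of the 426 with a lower level (26.1%). Coconut oil pig 6 was nearest in 31 (7.36%) and 21 (4.93%) of them. How often each pig was the lowest or highest coconut oil pig over all genes tested was not counted. These shares therefore do not tell whether pig 3 was like group R or only varied more. Coconut oil pig 1 lay alone at 5.36 on the second principal component, beside rapeseed oil pig 3 at 6.65, while the other coconut oil pigs lay at -12.5 or below.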
